A study of Mus musculus with 6 samples.

Results

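The genes described here encode the muscle nicotinic acetylcholine receptor and the proteins that gather it at the neuromuscular junction. They were taken by symbol: the receptor subunits Chrna1, Chrnb1, Chrnd, Chrng and Chrne, the receptor tyrosine kinase Musk, its coreceptor Lrp4, its cytoplasmic activator Dok7, the scaffold Rapsn and the secreted ligand Agrn. These 10 genes, of 18194 on the array, were read by 14 probe sets of 45101. A probe set was used when the platform annotation paired it with exactly 1 of the 10 genes.

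The series profiled C2C12, a mouse myoblast line from ATCC that fuses into myotubes when serum is lowered. Parental cells were measured while growing in 10% fetal bovine serum and again after the change to differentiation medium with 2% horse serum, just after the change (day 0) and 2 and 4 days later. Apart from these, stable transfectants were measured at day 0, with a vector for a short hairpin against Rp58 (shRp58) or with the control, which one label calls a LacZ vector and another a control hairpin. Both stable lines were made by lipofection and held in G418 at 500 µg/ml for 2 weeks, and the labels do not say whether they were pools or clones. No motor neuron was part of any culture as the labels describe it. Each of the 6 groups was 1 array, so no difference below has a replicate error or a test, and the small number of arrays sets the precision.

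In muscle, acetylcholine released by the motor nerve opens the receptor, a ring of α, β and δ subunits with γ in the fetal form or ε in the adult form. Agrin from the nerve binds Lrp4, Lrp4 then activates the kinase MuSK with the help of Dok7, and rapsyn ties the receptors into clusters under the nerve ending. The promoters of several subunit genes carry E-boxes, the sites that MyoD and myogenin bind with an E protein partner, and myoblasts switch these genes on as they differentiate. Rp58, now named Zbtb18, is a zinc finger repressor, and among its reported targets are the Id genes, whose products keep E proteins from the myogenic factors.

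The RefSeq promoter table (GRCm38.p6) held windows of 300 bases, 250 before and 50 after the gene start, for 7 of the 10 genes: Chrng, Chrna1, Chrnb1, Chrne, Musk, Agrn and Dok7, the last 2 with 2 windows each. The windows below are shown because 4 of these genes were each at least 2-fold higher at day 4 than before differentiation and the fifth, Chrne, read low on every array. They lie at chr1:87205561-87205860 on the plus strand (Chrng), chr2:73580289-73580588 on the minus strand (Chrna1), chr11:69795888-69796187 on the minus strand (Chrnb1), chr4:58285712-58286011 on the plus strand (Musk) and chr11:70619145-70619444 on the minus strand (Chrne). Each is written 5′ to 3′ along its gene, and capitals mark every E-box, CANNTG on either strand.
Chrng: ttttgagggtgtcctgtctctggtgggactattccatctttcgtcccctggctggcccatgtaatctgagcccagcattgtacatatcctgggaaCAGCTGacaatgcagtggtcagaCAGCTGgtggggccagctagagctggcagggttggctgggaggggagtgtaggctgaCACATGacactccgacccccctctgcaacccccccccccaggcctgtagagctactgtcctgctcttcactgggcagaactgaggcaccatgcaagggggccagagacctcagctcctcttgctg
Chrna1: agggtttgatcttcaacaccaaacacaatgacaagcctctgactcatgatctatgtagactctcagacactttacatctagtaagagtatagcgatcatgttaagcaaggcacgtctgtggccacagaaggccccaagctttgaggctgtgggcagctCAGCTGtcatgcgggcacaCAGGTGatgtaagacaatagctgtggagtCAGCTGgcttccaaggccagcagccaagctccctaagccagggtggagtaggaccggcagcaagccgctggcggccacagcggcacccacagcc
Chrnb1: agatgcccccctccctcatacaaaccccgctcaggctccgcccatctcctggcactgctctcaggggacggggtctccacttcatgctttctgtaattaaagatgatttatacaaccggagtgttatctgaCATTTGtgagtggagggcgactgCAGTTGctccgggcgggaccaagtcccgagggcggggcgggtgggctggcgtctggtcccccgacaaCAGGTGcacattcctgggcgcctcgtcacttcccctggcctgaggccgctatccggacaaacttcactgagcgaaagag
Musk: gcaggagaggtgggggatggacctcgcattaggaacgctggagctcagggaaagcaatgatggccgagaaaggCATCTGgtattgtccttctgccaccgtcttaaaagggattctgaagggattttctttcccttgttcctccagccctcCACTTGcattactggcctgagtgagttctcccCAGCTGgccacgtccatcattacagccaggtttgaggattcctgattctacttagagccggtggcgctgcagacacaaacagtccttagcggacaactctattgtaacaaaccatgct
Chrne: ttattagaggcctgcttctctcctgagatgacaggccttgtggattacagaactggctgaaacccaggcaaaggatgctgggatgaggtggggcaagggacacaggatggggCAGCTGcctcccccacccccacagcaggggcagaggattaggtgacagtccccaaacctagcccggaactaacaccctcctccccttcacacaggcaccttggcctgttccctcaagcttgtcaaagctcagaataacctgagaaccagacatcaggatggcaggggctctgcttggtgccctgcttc

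Chrng, Chrna1, Chrnb1 and Musk each held 3 E-boxes in this window, a number reached by 17.6% of all 32851 promoter windows. Chrne held 1, where 72.3% of windows held at least 1. Of the 2 windows not shown for each of Agrn and Dok7, 1 held 1 E-box and the other 0. In Chrng, 2 of the 3 were CAGCTG, 155 and 132 bases before the start. In Chrna1, CAGCTG lay 92 and 44 bases before the start with CAGGTG between them at 73, and in Musk CAGCTG lay 68 bases before it. CAGCTG, counted within the E-boxes, was present in 16.3% of all windows. The Chrne window also held CCGGAA, the N-box through which Ets factors act at synaptic nuclei, 76 bases before the start, as 14.9% of all windows did, and no other window of the 7 genes held it. ACATCTG, the core of the Rp58 site and itself an overlap with the E-box CATCTG, was found in 4.43% of all windows and in none of those of the 7 genes. A match, or its absence in so short a window, is a description of these letters.

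All values are the authors' log2 RMA values, in which 1 unit is 2-fold. The medians of all probe sets were 8.26 to 8.27 on the time-course arrays and 7.15 on both stable-line arrays, so levels were compared within each of these sets. A gene with several probe sets was represented by the brightest when genes were counted, and it was counted if its highest value reached 7.95, the median of all values. This left 13242 genes and 9 of the 10 junction genes. The 9 read 7.96 or more on every array, so none passed through its high arrays alone, and Chrne did not pass. Among the markers of cell identity, 9 of 10 skeletal muscle markers were at or above 7.95 in growth medium and 10 of 10 on every later array. Of 9 motor neuron and neuron markers, 5 passed the filter. The synaptic vesicle genes Syn1 (10.28 to 11.02 in the time course) and Syt1 (9.12 to 9.48) were the brightest, and Rbfox3, Isl1 and Chat lay between 7.83 and 8.44. The other 4 did not pass. Of these, Slc5a7 came close at 7.74 to 7.93, while Mnx1, Slc18a3 and Snap25 were at most at 5.29, 5.25 and 5.09. Of 4 Schwann cell markers 3 passed: Sox10 (9.55 to 10.09 in the time course), Mbp (8.80 to 9.16) and Erbb3, which muscle also makes and which is described below. S100b read at most 7.22. Of 7 endothelial and leukocyte markers 3 passed, and so did 3 of 5 fibroblast and adipocyte markers, Pdgfra, Dpt and Lpl. The former were Cd3e (9.75 to 10.29 in the time course), Kdr (9.44 to 9.46) and Adgre1 (9.22 to 9.51). Passing the filter therefore does not by itself show that a marker's cell type was present.

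Over the whole course from growth medium to day 4, 7 of the 9 genes that passed the filter were at least 2-fold higher, where 8.09% of all genes were, and Agrn and Dok7 were the 2 that were not. At least 2-fold lower over the course were 0 of the 9 and 5.33% of all genes. The fetal subunit Chrng led by a wide margin, followed by the neighbouring subunit gene Chrnd and by Lrp4. Day by day, 2 of the 9 genes (Chrng and Chrnd) were at least 2-fold above growth medium by day 0, where 2.91% of all genes were. At day 2 against day 0, 2 of 9 were 2-fold higher (Chrng and Lrp4), where 2.67% of all genes were. At day 4 against day 0 the number was 4 of 9 (Chrng, Lrp4, Chrnd and Musk), where 3.83% of all genes were. Between day 4 and day 2 it was 0 of 9, where 0.808% of all genes were 2-fold higher. Those at least 2-fold lower numbered 0 of 9 in each of these comparisons, against 0.317%, 2.96%, 5.66% and 0.808% of all genes in the same order. The median of the 9 genes was 0.45 for day 0 minus growth medium, 0.50 for day 2 minus day 0, 0.97 for day 4 minus day 0 and 0.11 for day 4 minus day 2, while the medians of all genes were 0.10, -0.01, -0.04 and -0.03. Day 0 minus growth medium was larger in brighter genes. In the 2 brightest of 5 equal groups of genes by level, which hold all of the 9 but Lrp4, its medians were 0.18 and 0.23. Chrnb1, in the brightest group, differed by 0.22, and by 0.01 after quantile normalization.

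**Figure D1:**
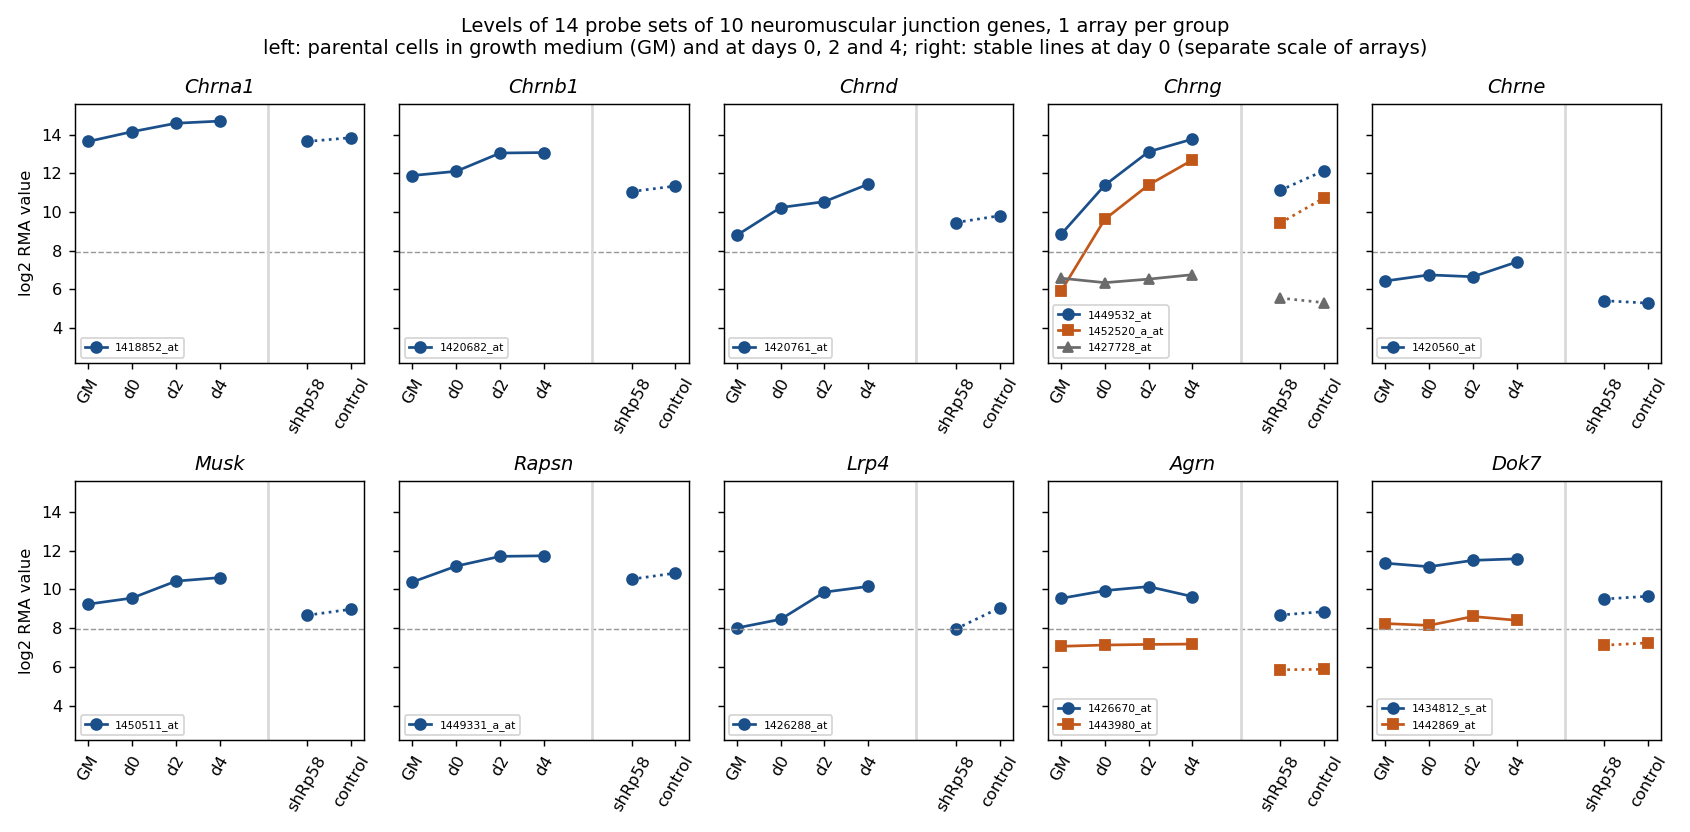
Level (log2 RMA value) of each of the 14 probe sets, with 1 point for each array: solid lines join growth medium (GM), day 0, day 2 and day 4 of the parental cells, dotted lines join the shRp58 and control-vector lines at day 0, and the dashed line is the filter of 7.95. Chrng reached 13.77 at day 4 on its brightest probe set, while Chrne stayed below the dashed line throughout.

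Chrng, the subunit that marks the fetal receptor, was read by 3 probe sets. The brightest stood at 8.84 in growth medium, then at 11.39 (day 0), 13.12 (day 2) and 13.77 (day 4), so every later array was above the one before it. Its level at day 4 was 30.4-fold that in growth medium. The second probe set stood at 5.91, 9.63, 11.40 and 12.69 in the same order, 110-fold apart between the ends. That first value is far below 7.95, so the larger fold rests on a dim starting point. The third probe set stayed between 6.35 and 6.76 on the 4 arrays and showed no such course. For day 0 minus growth medium the 2 bright probe sets gave 2.55 and 3.72. Their gap of more than 1 unit is wider than in most genes: over 5823 genes with several bright probe sets the median range of this difference was 0.29 and its 90th percentile 0.77. Of all counted genes 0.211% were as far above growth medium at day 0 as the brightest Chrng probe set, and 0.906% as far above day 0 at day 4.

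Chrnd encodes the δ subunit and is the gene next to Chrng on chromosome 1, with 0 annotated genes between their starts. It stood at 8.80 in growth medium and 10.23, 10.54 and 11.44 at days 0, 2 and 4, so it was likewise higher on each successive array. Its spacing was unlike that of Chrng. Chrnd was 0.30 higher at day 2 than at day 0 and 0.90 higher at day 4 than at day 2, whereas Chrng was 1.73 and 0.65 higher over the same steps on its brightest probe set. The second Chrng probe set was 1.77 and 1.29 higher, so the size of the late Chrng step depended on the probe set.

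Chrna1, the subunit that forms the main part of the acetylcholine binding sites, was already at 13.65 in growth medium and read 14.15, 14.59 and 14.70 at days 0, 2 and 4. The whole course was a difference of 1.05, or 2.07-fold. Its level lay close to the top of the scale, since the highest value of any probe set was 15.09 at day 4, and whether the array could show a larger difference there was not tested. Chrnb1, the β subunit, stood at 11.89 in growth medium, then 12.11, 13.05 and 13.07 at days 0, 2 and 4, with 0.94 of its 1.19 units lying between day 0 and day 2. It missed 2-fold against day 0 at both later times and passed it after quantile normalization (1.05 and 1.01).

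Chrne, the subunit of the adult receptor, was at 6.44 in growth medium and 6.75, 6.66 and 7.42 at days 0, 2 and 4. All of these lie below the median of the arrays, so what they say of the transcript is limited. The day 4 value was the highest, 0.67 above day 0 and 0.76 above day 2, and 1.44% of counted genes were as far above day 2. The level of Chrne cannot be set against that of Chrng, because they are read by different probes.

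Of the genes that act on receptor clustering, Lrp4 differed most. It stood at 8.01 in growth medium, then 8.46, 9.86 and 10.16 at days 0, 2 and 4, with its main step of 1.40 between day 0 and day 2. Musk, the kinase that Lrp4 activates, read 9.24, 9.56, 10.43 and 10.61 in the same order and had its main step of 0.87 at the same place. Rapsn, the receptor scaffold, read 10.39, 11.21, 11.71 and 11.74, so its steps were 0.82, 0.50 and 0.03. Lrp4 and Rapsn lie on the same chromosome with 16 annotated genes between them, and their largest steps fell at different times.

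Agrn and Dok7 stayed nearly level. The brighter Agrn probe set stood at 9.54 in growth medium and 9.94, 10.15 and 9.63 at days 0, 2 and 4, and day 4 minus day 2 was -0.52. Among the probe sets that stand for the 9 genes it was the only one below 0 in that step, while Chrnb1 turned to -0.04 after quantile normalization and Dok7 to -0.06 with the mean of its probe sets. Agrn at day 4 was 0.09 above growth medium. Muscle cells make agrin as well as nerve, in a splice form with little clustering activity, and these probe sets were not assigned to splice forms. The brighter Dok7 probe set read 11.36, 11.18, 11.50 and 11.58 and the other 8.24, 8.14, 8.60 and 8.41, with ranges of 0.41 and 0.46 over the course. A second Agrn probe set lay between 7.06 and 7.18, below the filter.

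**Figure D2:**
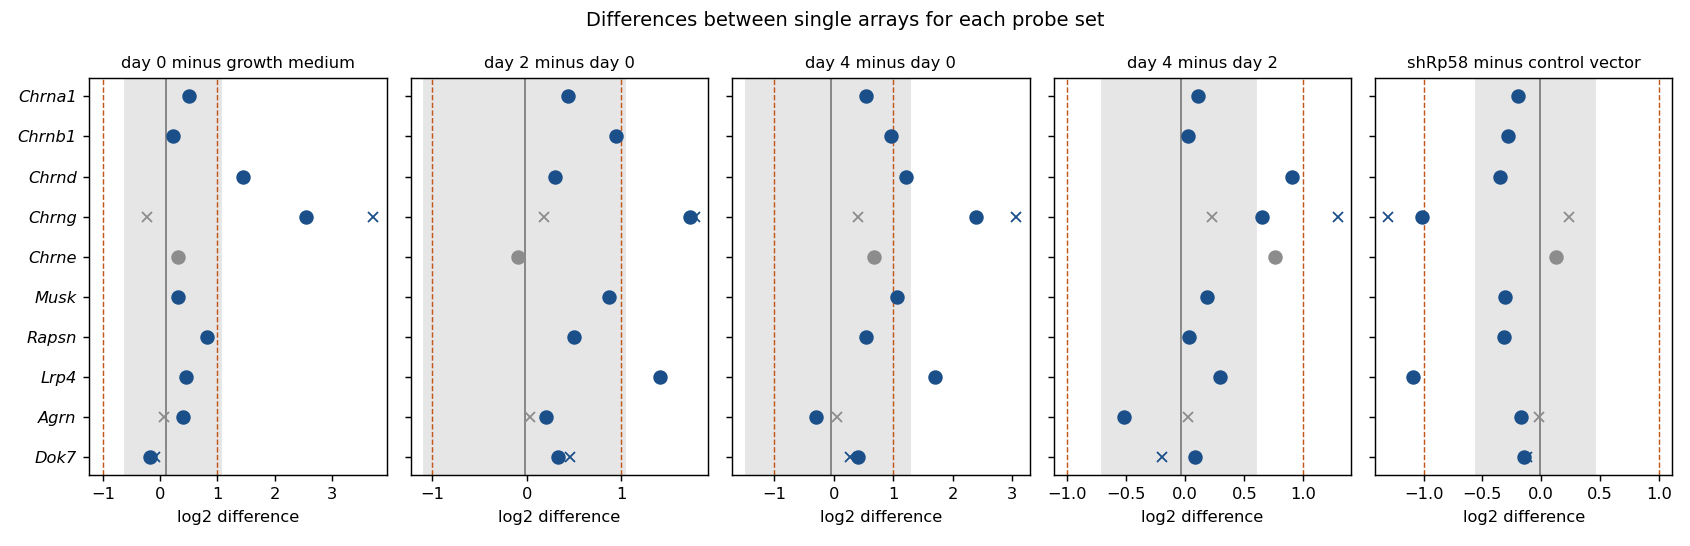
Log2 differences between arrays for each of the 5 comparisons, with 1 row for each gene: filled circles are the probe set that stands for the gene, crosses its other probe sets, and grey symbols those below 7.95 on every array. Grey bands hold the central 95% of all 13242 counted genes, the grey line is their median and the dashed lines are 2-fold. Chrng and Lrp4 lie past a dashed line in at least 3 panels each, and Agrn and Dok7 in none.

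Expressed as a share of the log2 difference between day 4 and growth medium, the 7 genes that were 2-fold apart over the course followed unequal time tables. At day 0, Rapsn had reached 60.6% of its course, Chrnd 54.3%, Chrng 51.7% and Chrna1 48.0%. The other 3 were well behind, with Musk at 23.0%, Lrp4 at 20.8% and Chrnb1 at 18.5%. By day 2, 6 of the 7 had reached between 86.1% and 97.9%, and Chrnd alone stood at 65.8%. After quantile normalization the shares at day 0 were 50.3% for Chrnd, 49.7% for Rapsn, 49.6% for Chrng and 41.2% for Chrna1. Those of Lrp4, Musk and Chrnb1 were 20.9%, 14.2% and 0.886%. This kept the order of the 2 sets of genes, though Rapsn no longer came first. The split was noticed in these values and has no test.

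**Figure D3:**
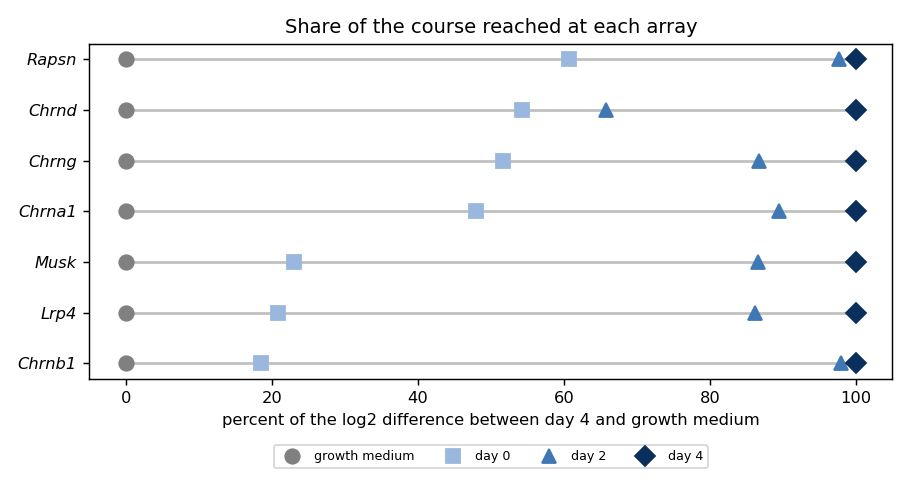
Percent of the log2 difference between day 4 and growth medium reached on each array (circle growth medium, square day 0, triangle day 2, diamond day 4) for the 7 genes at least 2-fold apart over the course. Squares lie at 18.5% to 23.0% for Chrnb1, Lrp4 and Musk and at 48.0% to 60.6% for the other 4, and the Chrnd triangle lies apart at 65.8%.

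In bulk cultures a higher level can come from more cells that express a gene or from more RNA per cell, and these cannot be told apart. The muscle regulator Myog, which binds E-boxes, stood at 11.06 in growth medium, then 13.34, 14.33 and 14.48 at days 0, 2 and 4. Myod1 read 12.45, 12.80, 12.64 and 13.03. The 10 skeletal muscle markers had a median of 2.42 for day 0 minus growth medium and 1.15 for day 4 minus day 0. In each, 7 of 10 were at least 2-fold higher, where 2.91% and 3.83% of all genes were. The 3 fibroblast and adipocyte markers that passed had medians of 0.72 for day 0 minus growth medium, 0.81 for day 2 minus day 0 and -0.12 for day 4 minus day 0. The lipase Lpl read 11.00, 12.47, 13.28 and 11.84 over the course, and Dpt, a matrix protein, 8.10, 8.03, 8.77 and 9.04. The part of other cell states, or of a larger share of differentiated cells, in the courses above was not tested.

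The hairpin comparison asks how the same genes stood at day 0 in shRp58 cells set beside control-vector cells. The target itself, Zbtb18, read 11.16 with shRp58 and 11.69 with the control vector, a difference of -0.53. In the parental cells it read 11.18 in growth medium, then 11.88, 12.86 and 13.06 at days 0, 2 and 4. This places Zbtb18 among genes 1 to 2 units higher over the course. Of that group 95.8% were lower with shRp58, with quartiles of -0.41 and -0.17, and Zbtb18 lay below both. How much of its difference came from the hairpin acting on its own transcript was not tested. All 9 junction genes that passed the filter were lower with shRp58, by -0.14 (Dok7) to -1.09 (Lrp4), with a median of -0.31. Of all genes 51.3% were lower, and their median was -0.01. That share depended on the course from growth medium to day 4. In the group with Agrn and Dok7, between 0 and 0.5 units higher, it was 63.1%. In the groups 1 to 2, 2 to 3 and at least 3 units higher, which hold the others, it was 95.8%, 95.9% and 98.6%. At least 2-fold lower were 2 of the 9, Lrp4 and Chrng, where 0.619% of all genes were, and 0 of the 9 were 2-fold higher, where 0.0529% of all genes were. With 1 array for each line, differences between the lines for any other reason cannot be told apart from those of the hairpin.

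Lrp4 stood at 7.96 in shRp58 cells and 9.05 in control-vector cells, and 0.544% of all genes were as far down. This was the widest gap among the probe sets that stand for the 10 genes. Chrng stood at 11.12 with shRp58 and 12.14 with the control vector on its brightest probe set (-1.02), and at 9.43 and 10.73 on the second (-1.30). The dim Chrng probe set read 5.56 with shRp58 and 5.32 with the control vector. On this comparison the 90th percentile of the range among bright probe sets of 1 gene was 0.43, and the 2 bright Chrng probe sets were closer than that. The 2-fold call of Chrng is marginal: it was -0.99 after quantile normalization and -0.69 with the mean of all 3 probe sets.

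The other receptor subunits differed less. Chrnd read 9.46 in shRp58 cells and 9.81 in control-vector cells (-0.35), Chrnb1 11.06 and 11.34 (-0.28), and Chrna1 13.65 and 13.84 (-0.19). Chrne read 5.42 with shRp58 and 5.29 with the control vector, a difference of 0.13 between dim values. In the lowest of 5 equal groups of genes by level, which holds Chrne, the median of this comparison was 0.05, and in the highest it was -0.03.

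Among the clustering genes other than Lrp4, Rapsn read 10.53 in shRp58 cells and 10.84 in control-vector cells (-0.31), and Musk 8.67 and 8.98 (-0.31). Agrn read 8.68 with shRp58 and 8.85 with the control vector (-0.17). Dok7 read 9.51 with shRp58 and 9.65 with the control vector (-0.14), and its second probe set differed by -0.12. Skeletal muscle markers were lower beside them, 10 of 10 with a median of -0.77. Of these, 4 were at least 2-fold lower, where 0.619% of all genes were. The 3 fibroblast and adipocyte markers that passed were lower too, with a median of -0.52: Lpl read 11.36 with shRp58 and 12.18 with the control vector (-0.82), Dpt differed by -0.52 and Pdgfra by -0.12. The 5 neuronal markers that passed were all above 0, with a median of 0.10, where 47.5% of all genes were above 0. In the second lowest of 5 equal groups by level (6.07 to 7.41), which holds Chat, Isl1 and Rbfox3, that share was 58.2%. In the middle group (7.41 to 8.83), which holds Syt1, it was 49.3%, and in the second highest, which holds Syn1, 44.3%. Chat, Isl1, Rbfox3 and Syt1 read 7.01 to 7.66 in the stable lines, below the filter value. Syn1 read 9.75 with shRp58 and 9.68 with the control vector. The part of any of these markers' cells in the differences of the junction genes was not tested.

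The hairpin and time-course comparisons share no array, so they were set against each other gene by gene. Across the 9 genes the hairpin difference was more negative where the difference between day 4 and growth medium was larger (Pearson r = -0.77, Spearman rho = -0.92, n = 9 genes). This was also so across all 13242 genes (r = -0.76, rho = -0.62), so the relation is not particular to junction genes. These are descriptions across genes that share the same 6 arrays.

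Genes of like course give a nearer yardstick. Of 760 genes that were between 1 and 2 units higher at day 4 than in growth medium, the middle 50% had hairpin differences from -0.41 to -0.17, and Chrna1, Chrnb1, Musk and Rapsn all lay in that range. Of 169 genes between 2 and 3 units higher, the middle 50% ran from -0.74 to -0.38. Lrp4 lay well below that range at -1.09, with 7 of the 169 genes at or below it, itself included, and Chrnd lay just above it at -0.35. Chrng, at -1.02, was in the middle of 142 genes at least 3 units higher, 70 of which were at or below it, itself included. Agrn and Dok7 belong to 3943 genes less than 0.5 higher, whose middle 50% ran from -0.13 to 0.04, and both lay below it.

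**Figure D4:**
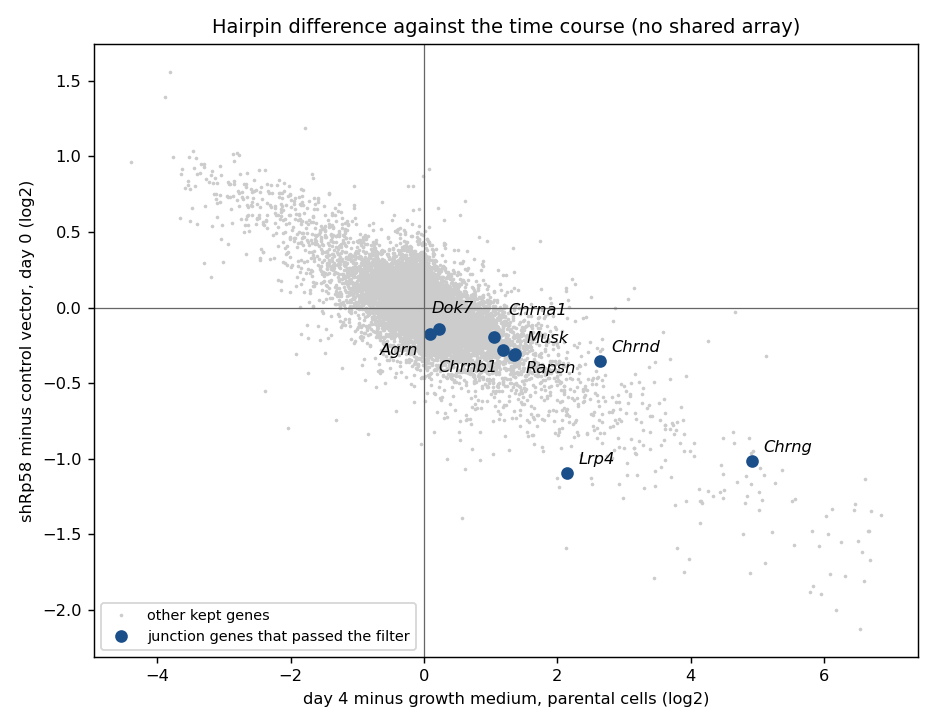
Each point is a gene: the x axis is day 4 minus growth medium in parental cells and the y axis is shRp58 minus control vector at day 0, both as log2 differences of single arrays. The 9 labelled junction genes all lie below 0 on the y axis, Lrp4 (-1.09) lower than most genes of like course and Chrnd (-0.35) higher than most.

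The genes whose time course was most like that of each 2-fold member were found by the distance in their 3 differences from day 0, over 4 arrays. Nearest to Chrng were Rab40b, Srl and Rbm24, where Srl encodes sarcalumenin of the calcium store and Rbm24 an RNA-binding splicing factor of muscle, at distances of 0.28, 0.42 and 0.48. Their hairpin differences, which the distance did not use, were -0.86, -1.17 and -1.10. Nearest to Lrp4 were Tm6sf1, Cpeb2 and Egln3 at 0.22 to 0.23, with hairpin differences of -0.80, -0.60 and -0.80, each smaller in size than the -1.09 of Lrp4. Chrnd was nearest to Pmaip1 (0.16), Ppp1r14c (0.31) and Stac3 (0.33), the last an adaptor of excitation-contraction coupling, with hairpin differences of -0.29, -0.27 and -0.62. Musk was nearest to Sike1, Tbccd1 and Deptor (0.10 to 0.14), with hairpin differences of -0.02, -0.21 and -0.32.

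Other genes of the junction were counted by list. Of 23 MuSK signalling and clustering partners that passed the filter, 1 was at least 2-fold higher and 1 lower at day 4 against day 0, with a median of -0.10, where 3.83% of all genes were higher and 5.66% lower. The higher one was Pdzrn3, a ubiquitin ligase that binds MuSK and lowers its surface level, at 9.43 in growth medium and 10.13, 11.81 and 11.72 at days 0, 2 and 4. Pdzrn3 was also lower with shRp58, at 8.34 against 9.08 with the control vector (-0.74). The lower one was Nsf, a vesicle fusion ATPase (-1.09). With shRp58, 16 of the 23 were below 0 (median -0.05), where 51.3% of all genes were. Of the 23, 0 reached 2-fold, where 0.0529% of all genes were higher and 0.619% lower.

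Of 22 synaptic membrane and basal lamina genes that passed, 0 were 2-fold apart at day 4 against day 0 (median 0.06). Of all genes 3.83% were higher and 5.66% lower. Sntb1, a syntrophin of the dystrophin complex named here after its values were seen, was the 1 gene past 2-fold in day 0 minus growth medium (1.52) and in day 2 minus day 0 (1.09). In these comparisons 2.91% and 2.67% of all genes were 2-fold higher. Utrophin, Utrn, which lies beside the receptors at the synapse, read 11.56, 12.02, 12.31 and 12.44 over the course and 11.01 with shRp58 against 11.28 with the control vector. With shRp58, 20 of the 22 were lower (median -0.25), where 51.3% of all genes were. None of the 22 was 2-fold apart, where 0.0529% of all genes were higher and 0.619% lower. The acetylcholine-splitting enzyme Ache, at 5.61 to 5.92 in the time course, and its collagen anchor Colq, at 7.39 to 7.58, did not pass the filter.

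Of 21 regulators of receptor gene transcription that passed, 4 were at least 2-fold higher and 7 lower at day 4 against day 0, where 3.83% of all genes were higher and 5.66% lower. With shRp58 0 of the 21 were 2-fold apart, where 0.0529% of all genes were higher and 0.619% lower. Erbb3, a neuregulin receptor, was the largest of the higher ones, at 9.02 in growth medium, then 11.05, 12.33 and 12.64 at days 0, 2 and 4, and read 10.19 with shRp58 against 10.97 with the control vector. The E-box repressor Msc (-2.11 at day 4 against day 0), Id3 (-1.89), Id2 (-1.72) and Id1 (-1.41) were lower, and with shRp58 these 4 differed by 0.25, 0.65, 0.74 and 0.48. The others of the 7 were Etv4 (-1.56), Myf5 (-1.29) and Tcf3 (-1.10), which differed by 0.76, -0.07 and 0.19 with shRp58. Of 6784 genes lower at day 4 than in growth medium, 30.1% were below 0 with shRp58 (median 0.07), so such a direction is not particular to these genes. Of 10 neuronal nicotinic subunits on the array 6 passed the filter, and 0 of the 6 were 2-fold apart in any of the 5 comparisons. Among all genes, 0.0529% to 5.66% were 2-fold apart in a given direction. All 6 were above 0 with shRp58 (median 0.22), on levels of 6.25 to 8.17 in the stable lines. Of all genes 47.5% were above 0, and 58.2% in the second lowest of 5 equal groups by level, which holds most of the 6. In the middle group, which holds the rest, 49.3% were.

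**Figure D5:**
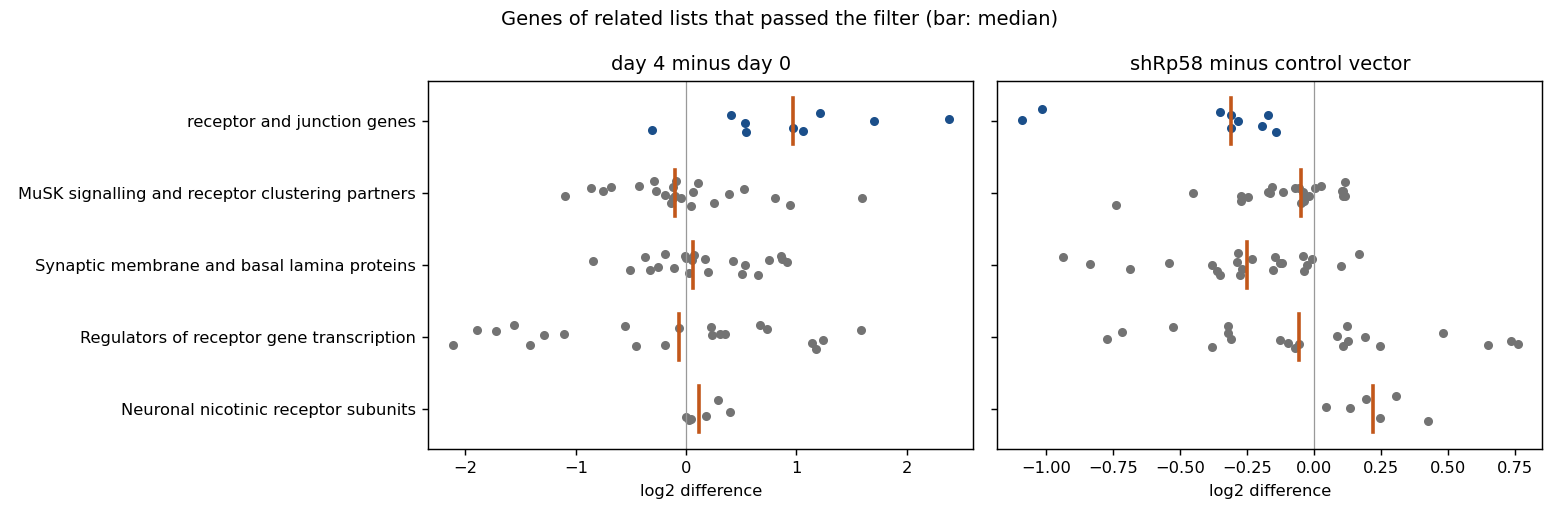
Log2 differences of genes that passed the filter, for day 4 minus day 0 (left) and shRp58 minus control vector (right), with 1 point for each gene and a bar at the median of each list. The medians of the receptor and junction genes lie at 0.97 and -0.31, while the regulators spread to both sides of 0.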

How the data were processed

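The 6 samples were hybridised as 10 ug of cRNA to 1-colour Affymetrix mouse arrays, which read a transcript by sets of short probes. The authors summarised each probe set with RMA, per the series' design text, and the deposited numbers run as log2 values do. The RMA software, its version and the grouping of arrays in that step are not stated in the sources used here. Groups came from sample titles. The platform annotation gave 1 gene for 34958 of 45101 probe sets. All 10 symbols matched the RefSeq gene table of GRCm38.p6 through Entrez IDs, and 0 probe sets paired a member with a further gene. That table was used for names, chromosomes and neighbours.

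Differences between 2 arrays were computed with Python 3.11.15, numpy 2.4.6 and pandas 2.3.3, and figures were drawn with matplotlib 3.10.9. Called means at least 2-fold apart. No test was possible with 1 array in each group, and no detection calls were used. The counting code was run on simulated data with shifts past the threshold and little noise. That checks the code only and says nothing of the error of the calls. The members and lists were chosen with earlier results of these data known. Genes outside the members were named by a rule, which took in Myog, Myod1, Zbtb18, Id1, Id2, Id3, Ache, Colq and Utrn. It added up to 4 genes per list, cell markers excepted, at least 2-fold apart at day 4 against day 0 or with shRp58. It also added the 3 nearest in course to each member 2-fold from day 0. Sntb1, Etv4, Myf5 and Tcf3 lie outside this rule and were chosen after their values were seen. So were the markers of neurons, Schwann cells, endothelium, leukocytes, fibroblasts and adipocytes that the text names, apart from Erbb3, which the rule takes in. Alternatives were centring, quantile normalization within each set of arrays, the mean of a gene's probe sets, no filter and a threshold of 1.5-fold.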

Additional observations from a re-analysis of the deposited data

How the results depend on the processing

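No paired analysis was possible because each group is 1 array, and no replicate could be left out. Centring each array on its median, quantile normalization within each set, and dropping the filter left every median of the members within 1.5 times its value and of the same sign. The count of members past the threshold changed by more than 1.5 times in 4 cases. At 1.5-fold instead of 2-fold, 4 members were higher at day 2 against day 0 (6.68% of all genes) and 2 at day 4 against day 2 (2.62% of all genes). The 2 members lower with shRp58 became 1 after quantile normalization, where Chrng stood at -0.99, and 1 with the mean of all probe sets of a gene, where Chrng stood at -0.69 because its dim probe set entered the mean. With the mean of only the probe sets that passed the filter, an alternative chosen after seeing the data, 2 members were lower. A pair of small differences between day 4 and day 2 turned sign: Chrnb1 at -0.04 after quantile normalization and Dok7 at -0.06 with the mean of probe sets. Dim probe sets, those of Chrne among them, limit the sizes given.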
